A study of Mus musculus with 2 samples.

Results

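Deep intronic open sites are DNase I accessible places that lie inside an intron of a protein-coding gene and far from any known start of transcription. They were taken as the replicate 1 peaks that overlapped a replicate 2 peak by at least 1 bp, with the midpoint in an intron of a GENCODE M21 protein-coding gene, no overlap with an exon, and more than 50 kb to the nearest transcription start site (TSS) of any gene. On chromosomes 1 to 19 there were 6266 such peaks among 151215 shared peaks, or 4.14%. Both libraries came from whole embryos of the mouse strain B6NCrl at 10.5 days of development, with males and females pooled, and they are labelled as biological replicates 1 and 2 of the only group. The labels give them separate biosamples and the same donor entry, so an SD over the 2 replicates measures the spread between these samples and may not include that between litters. No treatment, mutant or second stage was included, so no contrast between conditions could be made and no test was run. A whole embryo holds many cell types, and fewer cells with an open site cannot be told apart from a weaker opening in more cells.

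The enzyme DNase I cuts exposed DNA and is blocked by nucleosomes, so a pile of cuts marks a stretch that proteins have kept open. Away from promoters, such places are often enhancers, silencers or binding sites of the insulator protein CTCF. An enhancer can lie in an intron of the gene it controls, or inside a gene that it does not control and act on a neighbour. Enhancers of Twist1 are known within Hdac9, and enhancers of Dlx5 and Dlx6 within Dync1i1. Any of these that overlap an exon fall outside the rule. Long introns are common in genes of the nervous system and in many genes for developmental transcription factors.

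Replicate 1 held 203095 peaks and replicate 2 held 223678 on these chromosomes, each 150 bp wide with a whole-number score that is called strength here. The authors called peaks on each replicate separately, and the read depth is unknown from the files. Neighbouring peaks can overlap, and peaks of 1 embryo sample share their source, so they were not treated as replicates.

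The 4 strongest deep intronic sites are shown first because they mark the top of the range. Next come the strongest further sites with the letters of a SOX site, of the E-box CAGCTG, of a TEAD site and of the CTCF core, since these motifs recur in the results, and in these only the motif named is in capitals. All are in the plus strand of GRCm38 (mm10), 5′ to 3′, with motif letters in capitals on either strand. In the Vti1a site the capitals mark the POU octamer ATGCAAAT. In the Bach2 site they mark, in order, GATA, E-box CATCTG, MEIS and SOX letters, and in the Pde11a site E-box CAGCTG. The Pde4d site held none of the 22 motifs searched.
Vti1a intron, chr19:55556396-55556545: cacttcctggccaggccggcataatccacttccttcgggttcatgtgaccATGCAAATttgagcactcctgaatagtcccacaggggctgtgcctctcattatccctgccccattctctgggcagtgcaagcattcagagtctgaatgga
Pde4d intron, chr13:109822476-109822625: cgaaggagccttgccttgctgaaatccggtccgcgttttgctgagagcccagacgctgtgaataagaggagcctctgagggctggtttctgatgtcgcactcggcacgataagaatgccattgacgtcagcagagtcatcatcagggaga
Bach2 intron, chr4:32303796-32303945: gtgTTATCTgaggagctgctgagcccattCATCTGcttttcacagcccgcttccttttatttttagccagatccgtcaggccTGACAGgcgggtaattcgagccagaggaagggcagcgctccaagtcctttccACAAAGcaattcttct
Pde11a intron, chr2:76070476-76070625: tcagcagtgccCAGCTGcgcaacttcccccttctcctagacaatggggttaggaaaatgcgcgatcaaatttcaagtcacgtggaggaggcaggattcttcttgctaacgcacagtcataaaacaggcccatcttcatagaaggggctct
Zfhx4 intron with SOX letters, chr3:5387976-5388125: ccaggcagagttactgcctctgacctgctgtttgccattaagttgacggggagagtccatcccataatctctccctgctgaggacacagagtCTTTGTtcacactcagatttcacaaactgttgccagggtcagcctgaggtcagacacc
St3gal3 intron with E-box CAGCTG, chr4:118083716-118083865: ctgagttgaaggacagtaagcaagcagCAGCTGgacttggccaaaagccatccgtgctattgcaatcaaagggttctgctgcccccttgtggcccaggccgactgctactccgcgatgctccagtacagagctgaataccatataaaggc
Rad51b intron with TEAD letters, chr12:79504216-79504365: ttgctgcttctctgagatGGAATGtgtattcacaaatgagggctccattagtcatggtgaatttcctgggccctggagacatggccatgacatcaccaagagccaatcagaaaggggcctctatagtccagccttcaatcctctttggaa
Mob3b intron with CTCF core, chr4:35099956-35100105: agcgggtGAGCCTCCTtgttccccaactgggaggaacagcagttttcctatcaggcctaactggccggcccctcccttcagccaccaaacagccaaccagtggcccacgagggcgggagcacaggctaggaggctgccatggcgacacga

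The strongest of all lay in Vti1a, a SNARE protein gene, with a strength of 126 in replicate 1 and 134 in replicate 2. It was 145.733 kb from the nearest TSS and 185 kb from that of Tcf7l2, which encodes a transcription factor of Wnt signalling and is the nearest protein-coding gene other than the host. The Pde4d site, in a gene for a cAMP phosphodiesterase, reached 124 and 133, and the Pde11a site, in a gene for a phosphodiesterase of cAMP and cGMP, reached 121 and 129. In Bach2, which encodes a transcription factor best known from lymphocytes, the strengths were 127 and 126. These 4 sites scored above 95% of all deep intronic sites in both replicates.

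The next 6 by mean strength lay in Ephb2, Zfhx4, Rad51b, Dnah11, Gse1 and Nrg1, with strengths from 114 to 126 in replicate 1 and from 123 to 125 in replicate 2. Ephb2 encodes an ephrin receptor of axon guidance and Nrg1 encodes neuregulin, an ErbB ligand of heart and neural crest development. The Ephb2 site was 64.0% G and C and had an observed to expected CpG ratio of 1.20, higher than the other 9, whose ratios ran from 0 to 0.815. The Nrg1 site lay 1037 kb from the nearest other protein-coding TSS, in an intron of 915 kb. At the other end of the scale, 5% of deep intronic sites were at or below 23 in replicate 1 and 30 in replicate 2.

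Shared deep intronic sites had a median strength of 42 in replicate 1 and 51 in replicate 2, and reached at most 127 and 134. The replicates ranked them alike, with Spearman's rho of 0.853 over the sites, which share both libraries. On the log2 scale, replicate 2 strengths exceeded those of replicate 1 by a median of 0.25, and the SD over sites was 0.29. Strengths of 100 or more were rare, at 1.32% of the sites in replicate 1 and 3.03% in replicate 2.

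These sites were weaker than promoter peaks and, by less, than intronic peaks nearer a TSS. Shared peaks within 1 kb of a TSS had medians of 65 and 82, introns 1 to 10 kb from a TSS had 46 and 58, and introns 10 to 50 kb from a TSS had 45 and 54. Deep intergenic shared peaks, over 50 kb from a TSS and outside every gene, had medians of 40 and 48. The order of the medians was the same in both replicates, with deep intronic sites above deep intergenic peaks and below both sets of nearer intronic peaks. The upper end did not keep this order. Deep intergenic peaks had 95th percentiles of 84 and 94, beside 83 and 93 in deep introns, and 1.54% and 3.41% of them reached 100.

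**Figure D1:**
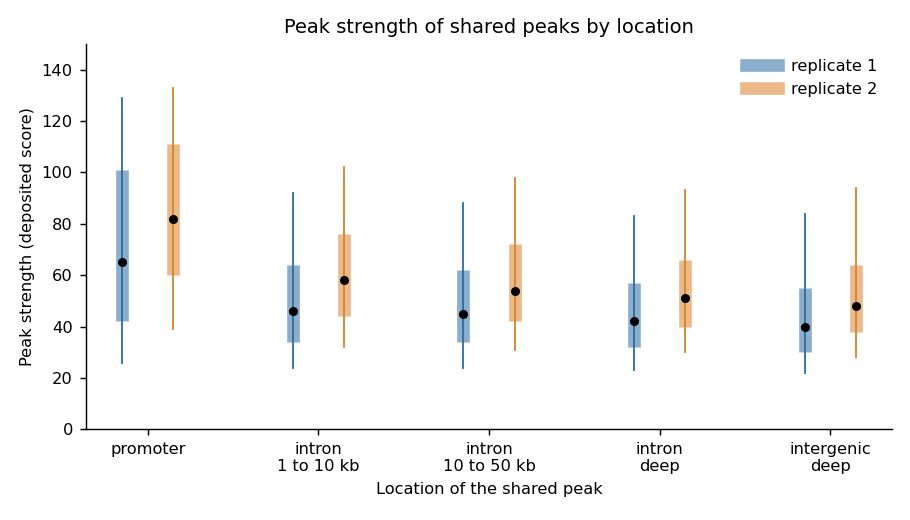
Peak strength (deposited score) of shared peaks by location, in replicate 1 (blue) and replicate 2 (orange). Points mark medians, thick bars the middle 50% of peaks and thin lines the 5th to 95th percentile; deep intronic medians of 42 and 51 lie just above the deep intergenic medians of 40 and 48 and well below the promoter medians of 65 and 82.

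Of the 8955 deep intronic peaks that replicate 1 held on its own, 70.0% were shared, and of the 9253 in replicate 2, 68.2% were shared. Other places had similar shares, at 71.1% and 70.7% in introns 10 to 50 kb from a TSS and 68.7% and 67.3% in deep intergenic sequence. Promoter peaks were shared in 80.8% and 70.6% of cases. Over all replicate 1 peaks on these chromosomes, 151215 of 203095 were shared. The unshared deep intronic peaks were weaker, with medians of 27 in replicate 1 and 34 in replicate 2. Most shared sites, 6173 or 98.5%, paired one to one between the replicates. The hotspots, wider domains called by the authors, covered 95.5% of the shared sites in both replicates. The covering hotspots were narrow, with median widths of 271 bp in replicate 1 and 304 bp in replicate 2.

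The distance rule cuts through a continuous range. The sites just inside it were in Ctif at 50.006 kb, with strengths of 41 and 60, in Ano3 at 50.009 kb, with 40 and 37, and in Gpr39 at 50.012 kb, with 78 and 101. Just outside were peaks in Tmcc3 at 50 kb (77 and 64), Agbl1 at 49.994 kb (83 and 93) and Kcnj6 at 49.987 kb (30 and 29). The strengths of both sets overlapped.

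Open sites were spread over the deep introns at 4.52 shared peaks per 100 kb of eligible sequence, or 1 per 22.1 kb. Eligible sequence is the 138.559 Mb in which the centre of a peak could have met the rule. Replicate 1 alone gave 6.46 peaks per 100 kb and replicate 2 gave 6.68, a mean of 6.57 ± 0.152 (SD, n = 2). Introns 10 to 50 kb from a TSS had 8.02 ± 0.0737 (SD, n = 2), and deep intergenic sequence had 4.28 ± 0.0821 (SD, n = 2). Both gaps were larger than the spread between the replicates, so deep introns held fewer open sites than introns nearer a TSS and more than deep intergenic sequence.

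Density fell with distance within the deep introns too. It was 4.86 shared peaks per 100 kb at 50 to 100 kb from a TSS, 4.22 at 100 to 200 kb, 2.99 at 200 to 500 kb and 2.78 beyond 500 kb, where only 20 peaks lay. Intergenic sequence had 3.38, 2.49 and 1.83 over the first 3 of these ranges. Repeats, marked by lower-case letters in the reference, made up 29.1% of eligible deep intron and 39.4% of eligible deep intergenic sequence. After the data were seen, all peaks, including those in repeats, were also divided by the eligible sequence outside repeats alone. Per 100 kb of it there were 9.27 ± 0.215 and 7.06 ± 0.136 peaks (SD, n = 2). On this scale deep introns remained the denser and the ratio was smaller. Peaks in repeats were not left out, so these values are not densities outside repeats.

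**Figure D2:**
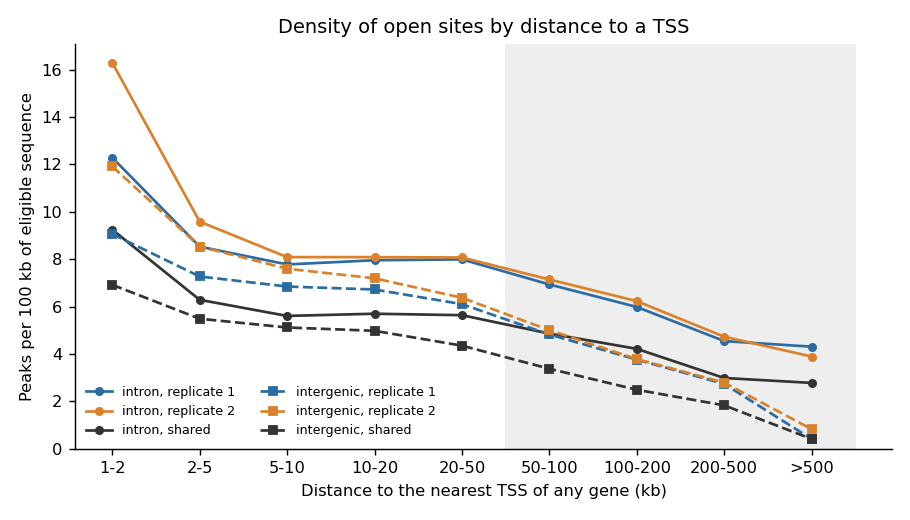
Peaks per 100 kb of eligible sequence by distance to the nearest TSS of any gene (kb), for introns of protein-coding genes (solid) and intergenic sequence (dashed), in replicate 1 (blue), replicate 2 (orange) and shared (black). The grey area holds the deep sites; there the intron line for shared peaks runs from 4.86 to 2.78 and lies above the intergenic line in every range.

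The median distance of a deep intronic site to any TSS was 79.6 kb, and 2045, or 32.6%, lay more than 100 kb away. Beyond 200 kb there were 327. The farthest 3 all lay in Dcc, which encodes the netrin receptor of commissural axons, 692.906 to 695.22 kb from a TSS, with strengths of 37 and 46, 63 and 88, and 99 and 99. The nearest protein-coding TSS other than that of the host was at a median of 247 kb. For 48.2% of the sites the nearest TSS of any gene was that of the host, and for the others it belonged to another gene. That other gene was protein-coding for only 435 sites, and for the rest it was of another type, such as a noncoding RNA or a pseudogene.

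First introns are known for regulatory elements, but the deep sites were not concentrated there. They held 27.7% of the sites and 27.0% of the eligible sequence. Along the gene, the first 20% of its length from the 5′ end had 3.59 sites per 100 kb, and the later stretches of 20% had 4.48 to 4.83. The introns were long, with a median of 92.1 kb, and the sites lay at a median of 18.8 kb from the nearest exon. Within 1 kb of an exon lay 6.43%.

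Of the 1270 protein-coding genes with at least 1 kb of eligible intron, 912 hosted a deep intronic site, or 71.8%. Hosts held a median of 4 sites, 186 held 1 and 67 held 20 or more. The 20 hosts with most sites held 805, or 12.8% of all. Eligible sequence and the number of sites went together, with Spearman's rho of 0.772 over the 1270 genes, so density per 100 kb is given beside each count. Among the 415 genes with at least 100 kb eligible, 397 were hosts (95.7%), with a median density of 4.11 and a range from 0 to 30.5. The densities of the replicates' own peaks ranked these 415 genes alike, with Spearman's rho of 0.910.

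The gene model with most sites was Gm20388, with 69, but it is 4434.88 kb long and spans other genes. It shared 35 of its sites with Gse1, which lies inside it, and 34 had no other host. Rad51b, a gene of homologous recombination, came next with 62 sites, from 86 peaks in replicate 1 and 98 in replicate 2. Its density was 14.3 per 100 kb, and 27 of its sites, or 43.5%, fell within 100 kb in the 3′ part of the gene.

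Lrmda, known for its role in melanocytes, held 58 sites, from 80 and 86 peaks. Of these, 24 lay within 100 kb that began 69.8 kb from the 5′ end, and for 52 the nearest other protein-coding TSS was that of Zfp503, a transcriptional repressor gene of the developing limb and brain. Gpc6, which encodes a glypican that binds growth factors, held 52 sites, from 81 and 85 peaks. Its sites were spread over 923 kb of eligible intron, so that its density of 5.63 was less than that of Rad51b and Lrmda.

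Zfhx3, a homeodomain and zinc finger factor gene, held 45 sites, from 58 peaks in replicate 1 and 78 in replicate 2. Wwox, an oxidoreductase gene at a fragile site, held 42 (66 and 75 peaks). Npas3, a bHLH-PAS factor gene of the brain, held 41 (55 and 64 peaks). The nuclear receptor gene Rora held 40 (48 and 59 peaks). The remaining hosts among the first 20 held 32 to 39 and were Camta1, Nrxn3, Sox5, Asic2, Dcc, Ntm, Rbfox1, Gse1, Magi1, Lsamp, Rbms3 and Macrod2. Of these, Nrxn3 encodes a presynaptic adhesion protein, Asic2 an ion channel, Rbfox1 a splicing regulator of neurons, and Ntm and Lsamp adhesion proteins of the IgLON family.

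**Figure D3:**
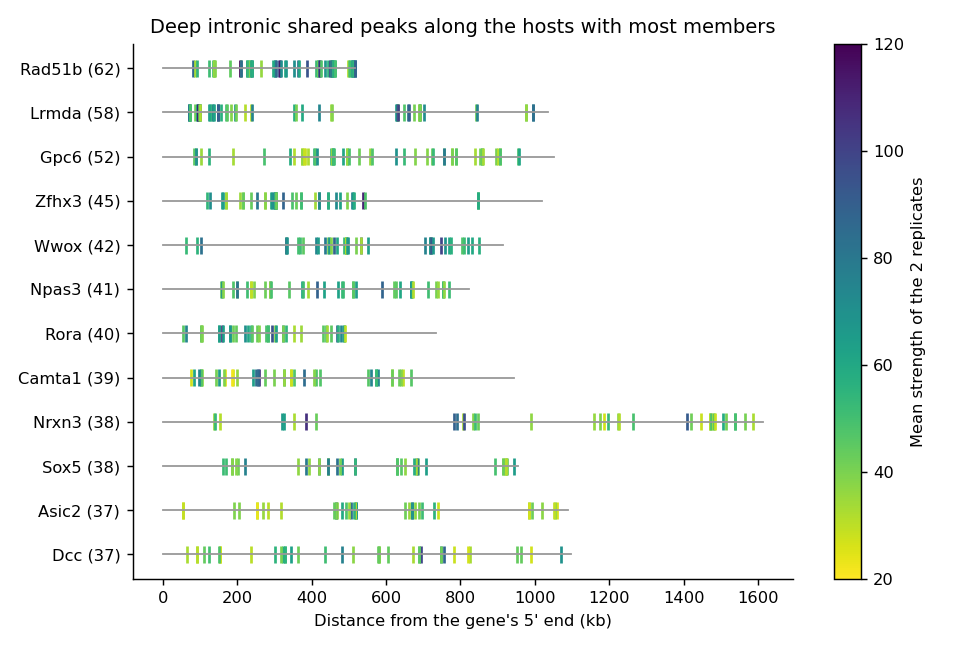
Position of each deep intronic site, as distance from the 5′ end of its gene (kb), in the 12 hosts with most sites apart from Gm20388, coloured by mean strength of the 2 replicates; grey lines show the gene and the number of sites is in brackets. Rad51b has 62 sites in 434 kb of eligible intron, or 14.3 per 100 kb, and Nrxn3 has 38 in 759 kb, or 5.01 per 100 kb. Stretches that the rule excludes are not marked, so a gap, such as that of 371 kb in Nrxn3, need not be eligible sequence.

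Among the 415 genes with at least 100 kb of eligible intron, Gse1 had the highest density, with 35 sites in 115 kb of eligible intron, or 30.5 per 100 kb. Replicate 1 held 40 peaks there and replicate 2 held 36. Of the 35 sites, 34 fell within 100 kb, but only 115 kb of this gene of 353 kb was eligible. Their closeness therefore does not show grouping within the gene. The strengths of the 35 sites were high for deep intronic sites, with medians of 66 and 76. Gse1 encodes a coiled-coil protein found with histone demethylase complexes.

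Next among them, Skap1, an adaptor gene of T cell signalling, had 18.9 sites per 100 kb, from 23 peaks in replicate 1 and 35 in replicate 2. It lies beside the Hoxb cluster, and its 22 sites were 187 to 281 kb from the TSSs of Hoxb1, a pair chosen after its values were seen. Snx11 was nearer, and was the closest other protein-coding gene to the strongest site, at 192 kb beside 213 kb for Hoxb1. It was also the closest to a run of 8 of the sites, at 141 kb. Pde11a had 16.3 sites per 100 kb (31 and 21 peaks) and Zbtb16, a zinc finger gene of limb and skeletal patterning, had 15.7 (22 and 28 peaks). Smyd3, Col23a1, Slc39a11 and Tshz2 had 13.9 to 15.3. The replicates differed in several of these genes by more than they did in Gse1, as in Skap1 with 19.7 and 30.1 peaks per 100 kb.

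Some genes with long introns held no deep intronic site. Skint5, with 459 kb eligible, had 1 peak in replicate 1 and none in replicate 2, and Skint6, with 247 kb, had none in either. Both encode membrane proteins of skin and thymus epithelium. Rp1, a photoreceptor gene with 171 kb, had a single unshared peak, in replicate 2. None of these 3 had an open promoter, which here means that each replicate had a peak at most 1 kb from a TSS of the gene. Cdh18, a cadherin gene with 346 kb eligible and 1 unshared peak in each replicate, and Klhl1, with 187 kb and 1 peak in replicate 1, did have one.

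Host genes had an open promoter in 94.0% of cases, 857 of 912, against 84.1% of the eligible genes without a site, 301 of 358. In single replicates the shares were 94.5% and 95.4% for hosts and 84.9% and 85.5% for the others, so the gap was larger than the spread between replicates. Over all eligible genes the share was 91.2%, and over all protein-coding genes of these chromosomes it was 70.9%. Hosts also had more eligible intron, with a median of 77.1 kb against 12.4 kb, whose part in the gap was not tested. Within the 415 genes with at least 100 kb, the share was 92.8% in the third of lowest density, 94.9% in the middle and 97.1% in the highest.

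Genes were then described by what they are known to do. The 63 developmental transcription factor and cofactor genes included 47 eligible ones, of which 42 were hosts, or 89.4%, and all 47 had open promoters, beside 71.8% hosts and 91.2% open promoters over all 1270 eligible genes. The 47 genes had more eligible intron, with a median of 87.1 kb beside 47.5 kb over all eligible genes. Its part in their share of hosts was not tested, and with at least 100 kb 95.7% of all genes were hosts. Their median density was 8.90 sites per 100 kb, beside 3.82 over all eligible genes. Of the 22 with at least 100 kb of eligible intron, 21 were above the median density, beside 49.9% of all such genes.

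Among those 22, Tshz2, a teashirt zinc finger gene, was densest with 13.9 per 100 kb. Gli3, the transcription factor of Hedgehog signalling that patterns limb and neural tube, followed with 13.3, from 17 and 24 peaks. Ebf1, a factor gene of B cells, neurons and mesenchyme, had 12.6 (38 and 31 peaks), and Trps1, a GATA-type repressor gene of skeleton and hair, had 11.3 (18 and 18 peaks). Zfhx3 had 9.63, Sox5 9.42, Rora 9.09 and Npas3 6.14. The exception was Foxp2, known from speech and brain development, with 4 sites in 178 kb or 2.25 per 100 kb.

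Synapse and neuronal ion channel genes had a similar share of hosts and a lower density. Of 44 eligible genes 39 were hosts, or 88.6%, and all 44 had open promoters, again beside 71.8% and 91.2% over all eligible genes, while the median density was 2.19. Most of them, 37, had at least 100 kb of eligible intron, where 95.7% of all genes were hosts. Of the 37 with at least 100 kb, 9 were above the median density of all such genes. The highest were Cacna1c, a calcium channel gene, with 10.4, and the kainate receptor gene Grik4 with 9.73. Nrxn3 had 38 sites and a density of 5.01, and Rbfox1 had 36 and 4.23. Csmd3 had 3 sites in 644 kb and Cntnap5a had 4 in 740 kb, and the glutamate receptor gene Grm5 had no peak in either replicate over 160 kb.

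**Figure D4:**
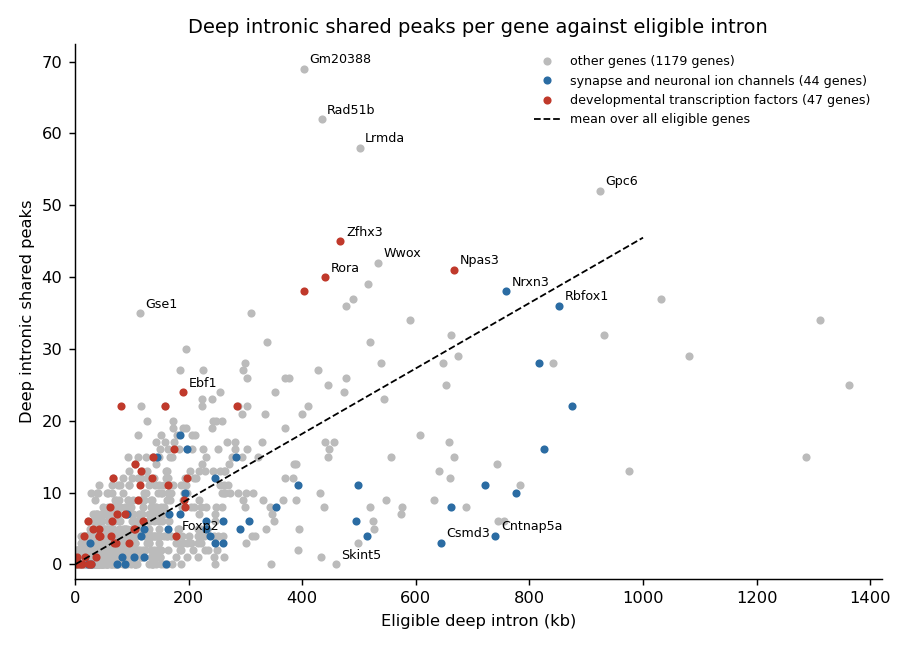
Deep intronic sites per gene against eligible deep intron (kb) for the 1270 eligible genes, with 47 developmental transcription factor genes in red and 44 synapse and ion channel genes in blue; the dashed line is the mean over all eligible genes, 4.55 sites per 100 kb. Most red points with much intron lie above the line and most blue points below it.

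For the other lists, the share of hosts to read each count against is 71.8% over all eligible genes and 95.7% with at least 100 kb of eligible intron, and the median density over all eligible genes is 3.82. Axon guidance genes had 19 hosts of 21 and a median density of 5.11, led by Dcc with 37 sites, Robo1 with 26 and Sema5a with 17. Growth factor signalling genes had 20 hosts of 21 and a median of 4.54, with 52 sites in Gpc6, 29 in Gpc5 and 29 in Nrg1. From the peaks of 1 replicate alone the median of this list was 8.77 in replicate 1 and 6.06 in replicate 2, where all eligible genes had 5.58 and 5.81, so its place relative to all genes depended on the library. Cadherin and IgLON adhesion genes had 27 hosts of 32 and a median of 3.03, with 36 in Ntm, 34 in Lsamp and 32 in Opcml. Genes of the axon guidance, growth factor and adhesion lists had more eligible intron, with medians of 128, 158 and 211 kb, than the 47.5 kb of all eligible genes. With at least 100 kb eligible, 6 of 12 axon guidance, 9 of 16 growth factor and 9 of 22 adhesion genes were above the median density, beside 49.9% of all such genes. For the lists that follow, this held for 3 of 14 fragile site, 2 of 5 muscle and cytoskeleton and 4 of 4 immune and blood genes.

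Large genes of common fragile sites all had at least 100 kb of eligible intron, and 14 of 14 were hosts, close to the 95.7% of all such genes, with a median density of 2.67. Macrod2 had 32 sites and Fhit had 28, in 931 and 842 kb of eligible intron. Muscle and cytoskeleton genes had 8 hosts of 11, or 72.7%, close to the 71.8% of all eligible genes. Their median density was 2.03 for shared sites, 2.81 from replicate 1 alone and 5.77 from replicate 2 alone, so it depended on the library. Their leading genes were Pard3b with 15 sites, Sgcd, a sarcoglycan gene, with 13, and the polarity gene Pard3 with 12.

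Genes of immune and blood cells had 6 hosts of 10 and 5 open promoters of 10, beside 71.8% and 91.2% over all eligible genes. Their median density was 3.64 for shared sites, 6.46 from replicate 1 alone and 4.70 from replicate 2 alone. Arhgap15 held 24 sites although its own promoter was open in neither replicate. Skap1 held 22 and Bach2 held 11 in 65.4 kb, both with open promoters. The eligible genes without a site included Cd226 and Ikzf1, but these had only 12.3 and 4.61 kb of eligible intron.

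Of 5 genes known to hold an enhancer of a neighbour, 3 were eligible. Hdac9, a histone deacetylase gene, held 26 sites, from 38 and 44 peaks, at 146 to 835 kb from the TSSs of Twist1, a bHLH factor gene of mesoderm and neural crest. The strongest, with 106 and 105, lay 243 kb from Twist1. Dync1i1, a dynein intermediate chain gene, held 8 sites, from 11 and 8 peaks, at 961 to 1074 kb from those of Dlx5. The promoters of Twist1 and Dlx5 were open in both replicates. Elp4 had 5.32 kb eligible and no site.

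Many sites had another site close by along the intron. For 54.8% another site lay within 5 kb on either side and for 16.5% within 500 bp, and 187 overlapped another. Joining sites within 5 kb gave 4138 groups, of which 2831 were single sites and 89 had 5 or more. Deep intergenic shared peaks were within 5 kb of another in 51.5% of cases, and shared peaks in introns 10 to 50 kb from a TSS in 55.8%. Such shares depend on density, which was 2.90 shared peaks per 100 kb in deep intergenic sequence, 4.52 in deep introns and 5.67 in the nearer introns. The share that density alone would give was not computed, so grouping cannot be compared between these places. Merging sites within 500 bp left 5717.

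The largest group lay in Prdm16, which encodes a transcription factor of craniofacial, heart and brown fat development. It had 14 sites over 24.1 kb at chr4:154403036-154427145, with strengths of 35 to 67 in replicate 1 and 38 to 82 in replicate 2. All were weaker than the 10 strongest sites. In Gse1, 13 sites spanned 21.3 kb at chr8:120288276-120309545, with strengths of 47 to 106 and 49 to 125. The third group, in Fam172a, had 12 sites in 11.2 kb at chr13:77889856-77901105, with strengths of 16 to 86 and 41 to 103. Some sites of a group overlapped or nearly touched. With sites within 500 bp merged, the Prdm16 and Gse1 groups held 11 each and the Fam172a group held 8.

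The Rad51b group had 11 sites over 17.4 kb, or 8 after such merging, and the Lrmda group had 9 over 13.1 kb, or 6. In the latter, 1 site reached 116 and 115 and its neighbours ran from 26 to 88 in replicate 1 and 38 to 89 in replicate 2. That group lay 116 kb from the nearest TSS of Zfp503.

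Deep intronic sites were richer in G and C than their surroundings. The median was 48.0%, beside 42.7% in 11556 flanking windows of 150 bp placed 1000 bp away and free of peaks, and 59.3% in promoter peaks. Median G and C content was 46.0% in the weakest 20% of sites by strength and 50% in the strongest 20%. Only 122 sites, or 1.95%, were CpG-rich (over 50% G and C with a CpG ratio over 0.6), beside 47.5% of promoter peaks. The CpG-rich sites had median strengths of 50 and 59, and the others 42 and 50.

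Repeats covered over 50% of the window in 2.63% of the sites and in 13.9% of the flanks. How reads in repeats were treated was not given in the sources used here.

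Short sequence motifs were searched as exact letters on both strands. The E-box CAGCTG, bound by many bHLH factors of neurons and muscle, was in 18.5% of the sites and 5.81% of the flanks. The separate replicates' own deep intronic peaks held it in 17.9% and 16.3%. At least 2 copies were present in 2.06% of the sites and 0.260% of the flanks. The E-box CATCTG was in 21.8% and 11.1%, while CACCTG, which has the same G and C content as CAGCTG, was in 7.82% and 9.00%. E-box letters can overlap those of other motifs, so the counts are not independent. Sites and flanks also differ in G and C content and in repeats, whose part in these gaps was not tested.

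The ZIC letters CAGCAGG were in 8.75% of the sites and 2.96% of the flanks, and the MEIS letters TGACAG in 18.0% and 10.3%. TEAD letters, GGAATG, were in 11.2% and 7.94%, and SOX letters, ACAAAG, in 17.4% and 13.6%. GLI letters, TGGGTGGTC, were rare, in 19 sites, or 0.303% beside 0.0779%. Homeodomain letters, TAATTA, were in 5.59% beside 5.99%, a gap smaller than the spread between the own peaks of the replicates, at 5.91% and 4.81%. GATA letters, AGATAA, were in 7.15% beside 10.1%, and MEF2 letters, TATTTATA, in 0.670% beside 1.84%. The GATA and MEF2 letters were less frequent in the sites than in the flanks, and the flanks have less G and C. The part of G and C content and of repeats was not tested for any of these motifs, whether more or less frequent in the sites.

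The CTCF core AGGNGGCNC was in 235 sites, 3.75%, beside 1.29% of the flanks and 6.95% of promoter peaks. Its share was 2.55% in the weakest 20% of sites and 6.70% in the strongest 20%, and that of the SP/KLF letters GGGCGG was 1.92% and 6.30%, while CAGCTG stood at 17.9% and 16.0%. G and C content was also higher in the strongest sites, as given above, and its part in these shares was not tested. Of its matches, 32.9% lay in the middle 30 bp of the peak, where 20% would lie if spread evenly. SP/KLF letters were in 3.56% of the sites and 32.7% of promoter peaks. None of the 22 motifs was found in 1101 sites.

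Motif shares in deep intronic sites lay close to those in deep intergenic shared peaks. CAGCTG was in 17.9% of the latter, ZIC letters in 8.38%, the CTCF core in 3.41% and SOX letters in 18.7%. MEIS letters were in 16.3%, beside 18.0% of the deep intronic sites. A match of letters does not show that a factor was bound.

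**Figure D5:**
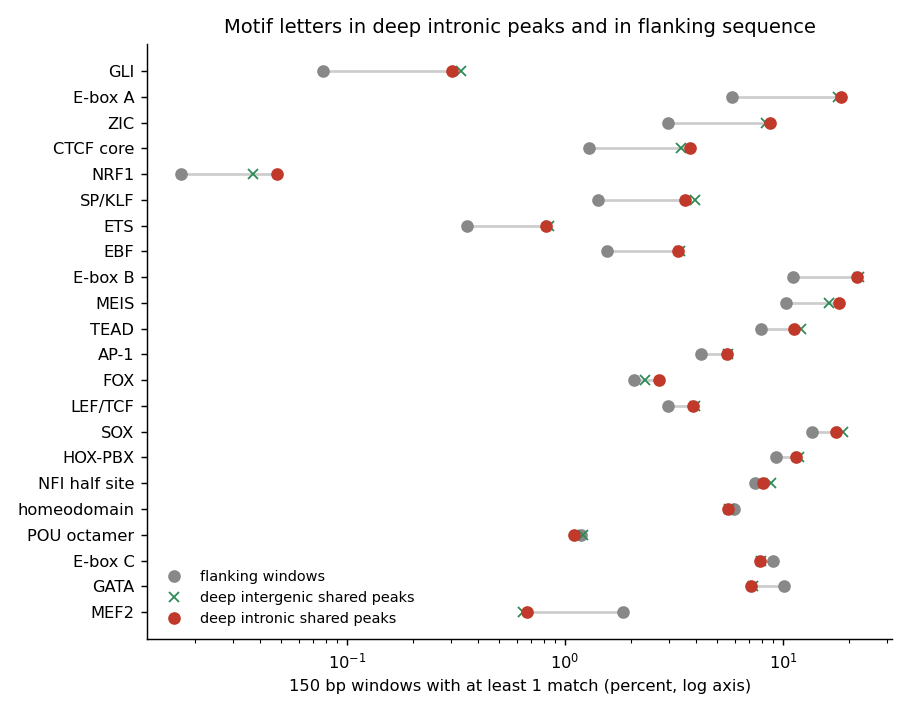
Percent of 150 bp windows with at least 1 match (log axis) for each of 22 motifs in deep intronic sites (red), deep intergenic shared peaks (green crosses) and flanking windows (grey), ordered by the ratio of sites to flanks. E-box A is the GC-centred form at 18.5% in the sites, E-box B the TC-centred form at 21.8% and E-box C the CC-centred form at 7.82%; red points and green crosses nearly coincide.

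The replicates differed in some hosts. Immp2l, a mitochondrial peptidase gene, held 9 deep intronic peaks in replicate 1 and 43 in replicate 2, with 5 shared sites. Within 22.1 kb at chr12:41275016-41297125, replicate 2 had 38 of its 43, with strengths of 7 to 41 and a median of 14, where replicate 1 had 2. Runs of at least 10 deep intronic peaks within 25 kb with a median strength below the 5th percentile of shared sites, a rule set after the data were seen, were found in Immp2l in replicate 2 and in no other host. They extended the weak stretch to chr12:41258076, with 10 peaks of median 13.5 up to chr12:41282425 and 29 of median 15 after it.

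In Vti1a, replicate 2 had 39 peaks and replicate 1 had 23. Over 20.7 kb at chr19:55449216-55469925 the counts were 13 and 1, with strengths of 34 to 57 in replicate 2. In the other direction, Atp8a2, a phospholipid flippase gene, had 45 peaks in replicate 1 and 29 in replicate 2, and Ptprk, a receptor phosphatase gene, had 27 and 17. Among 1025 genes with an own deep intronic peak in either replicate, 426 had more in replicate 2, 385 more in replicate 1 and 214 the same number.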

How the data were processed

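The data were DNase-seq peaks and hotspots on mm10, per the labels, from whole B6NCrl embryos of 10.5 days in 2 biological replicates. The authors deposited peaks called on each replicate, with a score from 2 to 150 that the files do not define, and hotspots with the −log10 of a q-value from 1.30 to 100. The aligner and caller were not given in the sources used here. Repeated lines (28 and 47) were dropped. The depth is unknown, so no interval is given.

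Peaks were placed on GENCODE M21 with Python 3.11.15, NumPy 2.4.6, pandas 2.3.3 and pysam 0.24.0, and sequence came from RefSeq GRCm38.p6. Eligible sequence was every base at which a 150 bp peak could be centred under the rule, outside assembly gaps. Density is peaks per 100 kb of it. A deep intronic site in introns of 2 genes counts for both, as 73 did. Placement, sharing, density and motif search were tested on simulated data.

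The design has 1 group, so all values are descriptions. Named hosts were the 20 with most sites, the 10 of highest density with at least 100 kb eligible, the 5 with most eligible intron and no site, the 5 with the largest surplus in each replicate, and in each of 9 lists the 3 with most sites and the first 2 without. Sites and lists were chosen with earlier results of these data known. Other named genes were chosen after their values were seen. Alternatives changed the overlap, the distance, the annotation, the peaks kept and the replicates.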

Additional observations from a re-analysis of the deposited data

How the results depend on the processing

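No paired analysis was possible because there was 1 group and no contrast. With a distance over 25 kb, the number of sites was 13529, density 5.06 per 100 kb, hosts 2120, hosts with an open promoter 92.2%, first intron share 32.1%, CTCF core share 4.04%, the transcription factor list's median density 9.41 and G and C content 48.7%. Over 100 kb these were 2045, 3.95, 313, 96.8%, 23.0%, 3.42%, 7.16 and 47.3%, and sites with another within 5 kb made up 51.5%. With TSSs and exons of protein-coding genes only there were 11342 sites at 4.78 per 100 kb, with 93.9% open, 27.3% in first introns, 3.91% CTCF, a list median of 8.92, 57.2% grouped and 48.7% G and C. With peaks above the median strength these were 2645, 1.91, 94.2%, 29.0%, 5.18%, 4.34, 42.2% and 49.3%, and median strength was 60. An overlap of 75 bp gave a density of 4.16, 94.0% open, 3.92% CTCF, a list median of 7.68, 50.6% grouped and 48.7% G and C. Started from replicate 2, median strength was 50 and CTCF 3.85%. Merging within 500 bp gave a density of 4.13 and a list median of 7.13.

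With a single replicate, density was 6.46 to 6.68, median strength 36 to 43, open promoters 93.5% to 93.5%, first introns 27.4% to 27.6%, CTCF 3.20% to 3.23%, list median 11.6 to 11.6, grouping 64.5% to 66.6% and G and C 47.3% to 48.0%. After the data were seen, leaving out Gm20388 gave 6232 sites, 911 hosts and a density of 4.51. All sites divided by the eligible sequence outside repeats alone, also a later choice, gave 6.38 per 100 kb. Depth is unknown, so sites missed for lack of reads cannot be counted.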

Other observations

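On the X chromosome, which the rule leaves out, the same criteria found 107 shared deep intronic sites in 37 host genes, from 156 peaks in replicate 1 and 199 in replicate 2. Their median strengths were 32 and 39, below the 42 and 51 of the autosomal sites. The samples pooled males and females, and males carry fewer copies of the X than of an autosome, so these strengths and counts are not directly comparable. The hosts with most sites were Dmd, the dystrophin gene, with 11, Frmpd4 with 10 and Hdac8 with 10.

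Chromosomes differed in density, from 3.31 sites per 100 kb of eligible intron on chromosome 16 to 6.05 on chromosome 11.

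The Pde4d site printed above holds the letters TGACGTCA of a cAMP response element, a motif looked up after the sequence was seen. They were in 7 deep intronic sites, or 0.112%, beside 0.0865% of the flanks and 1.40% of promoter peaks, so they were rare and about as frequent as nearby.

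Distances from some hosts to genes of embryonic patterning on the same chromosome are given for pairs picked after their values were seen, and other genes can lie nearer. Fam172a held 18 sites at 230 to 325 kb from the TSSs of Nr2f1, an orphan nuclear receptor gene of the forebrain, with a strongest site of 86 and 111, although the nearest other protein-coding TSS to its group of 12 sites was that of Pou5f2, at 124 kb. Erc2, a gene of the presynaptic active zone, held 31 sites at 155 to 556 kb from those of Wnt5a, a ligand gene of limb and axis outgrowth and the nearest other protein-coding gene for 27 of them, with a strongest site of 70 and 67. Wwox held 42 at 417 to 1205 kb from Maf, a leucine zipper factor gene of the lens, but for 27 of them Clec3a was the nearest other protein-coding gene, from 83.9 kb. Which gene any site acts on was not measured.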
